A study of Mus musculus with 2207 samples.

Results

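The histone methyltransferases G9a and GLP are known to keep a group of germ cell genes silent outside the germ line, and 10 such genes were followed here in single nuclei of the adult mouse cortex. The set is fixed by name and holds *Dazl*, *Ddx4*, *Mael*, *Tdrd1*, *Sycp1*, *Sycp3*, *Stag3*, *Slc25a31*, *Stk31* and *Hormad1*, which are 10 of the 52636 genes measured. RNA was read by RamDA-seq, a full-length total RNA method with random primers that does not keep the strand, in 2207 nuclei that the labels call neurons (1664), oligodendrocytes (397) or microglia (6.62% of nuclei). The nuclei came from 6 pools of C57BL/6 cortex (C57BL6/J by the methods), each made from 3 mice of 14 weeks of age, and all mice had been given tamoxifen from 3 weeks of age in 2 doses of 100 mg/kg. Each pool holds 16.4% to 16.8% of the nuclei. The 96-well plates held a WT pool and a pool labelled Ehmt1delta/+, whose mice have 1 deleted allele of *Ehmt1*, the gene of GLP. The 384-well plates held a WT pool and a pool labelled Ehmt1delta/+ from mice with the inducible *Ehmt1* transgene (iTg, Rosa26-CAG-FLAG-Ehmt1) without CamKII-CreER, and an iTg pool and a pool labelled Ehmt1delta/+; iTg from mice with the transgene and CamKII-CreER, a tamoxifen-dependent Cre of forebrain neurons. The study's text describes all genotypes of the latter series as mice with CamKII-CreER, so "without Cre" and "with Cre" are readings of the labels, which were followed here. The labels do not say which mouse a nucleus came from, so a pool counts as 1 sample. Within the 384-well plates, WT had a plate code of its own. Some other codes occur in more than 1 genotype, but most well positions under such a code are taken in each, so the code does not mark a single plate, and plate and genotype cannot be told apart.

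GLP and its partner G9a, the product of *Ehmt2*, work as a pair that places methyl groups on lysine 9 of histone H3. In embryonic stem cells and somatic tissue they act with PRC1.6, a Polycomb complex that contains the E-box binding pair MGA and MAX, the E2F family member E2F6, L3MBTL2 and PCGF6. Many germ cell genes of this group have CpG-rich promoters that are DNA methylated in somatic cells. The 10 genes cover several steps of germ cell life. *Dazl* and *Ddx4* (the Vasa helicase) bind RNA, *Mael* and *Tdrd1* serve the piRNA pathway that silences transposons, *Sycp1*, *Sycp3*, *Stag3* and *Hormad1* build or regulate the meiotic chromosome axis and synaptonemal complex, *Slc25a31* is the ADP/ATP carrier of the germ line, and *Stk31* is a Tudor domain kinase-like protein of spermatogenic cells.

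The palindrome CACGTG, the E-box bound by MGA and MAX, was searched in the 300 bases around each RefSeq start (250 bases before and 50 after), and the stretch that holds it is shown because it is the feature most of the set shares. It was present in the first listed promoter of 9 of the 10 genes, against 7.15% of all 32851 promoters of the table. The windows below are those of the first listed start of 8 of these genes (that of *Stag3* is not shown), in the direction of the gene, from RefSeq on GRCm38.p6, with the E-box in capitals, 15 bases on each side and no base past the start.
Ddx4 (chr13:112652319-112652354, minus strand): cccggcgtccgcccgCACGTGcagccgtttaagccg
Mael (chr1:166238947-166238982, minus strand): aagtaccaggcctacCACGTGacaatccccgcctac
Tdrd1 (chr19:56826183-56826208, plus strand): gggtggggctgcgcgCACGTGggagt
Sycp1 (chr3:102936174-102936209, minus strand): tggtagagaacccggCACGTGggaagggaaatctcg
Sycp3 (chr10:88459508-88459564, plus strand): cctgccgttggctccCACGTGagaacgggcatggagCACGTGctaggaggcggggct
Slc25a31 (chr3:40708763-40708798, plus strand): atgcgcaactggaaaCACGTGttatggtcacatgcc
Stk31 (chr6:49395469-49395504, plus strand): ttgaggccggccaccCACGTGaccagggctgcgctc
Hormad1 (chr3:95559605-95559676, plus strand): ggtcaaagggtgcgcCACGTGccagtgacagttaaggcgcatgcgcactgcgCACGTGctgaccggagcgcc
*Sycp3* and *Hormad1* each had 2 copies. The E-box nearest to the start began 11 bases before it in *Tdrd1*, 20 in *Hormad1*, 29 in *Ddx4* and 43 in *Sycp3*, and the *Mael* copy was the farthest of the 9 genes. The E2F core GCGGGA, searched on both strands, was in 7 of the 10 promoters (*Ddx4*, *Mael*, *Sycp1*, *Sycp3*, *Stag3*, *Slc25a31* and *Hormad1*) against 19.98% of all promoters, always together with the E-box. *Dazl* had neither motif in this window, but its promoter was CpG-rich like the others, with 28 CG dinucleotides in 300 bases against a median of 7 over all promoters and a range of 15 (*Sycp3*) to 38 (*Ddx4*) over the first listed promoters of the set (a further *Tdrd1* promoter had 3). Among 42 other germ cell genes with a promoter in the table, 11 had the E-box (26.2%) and 16 the E2F core (38.1%). Both motifs contain a CG, and their share over promoters of like CG content was not computed. A match of letters does not show that a factor binds there.

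Values were deposited as RPKM, reads scaled to the length of the gene and to the read total of the nucleus, and a nucleus was counted as positive with any value above 0. Each pool held 15.2% to 18.4% of the neurons, with a median between 323273 and 397880 reads. Glia of the 96-well plates had more reads than neurons, with medians from 441701 to 510639. Glia of the 384-well plates had far fewer, with medians from 39940 to 54877, so that a gene not seen in 384-well glia may lie below detection. The intervals of shares are exact binomial ones (Clopper-Pearson, 95%) and speak of counting error alone, since reads without molecular identifiers are not independent molecules and nuclei of a pool are not replicates. Where a count was 0, the limit given is 3 counts over the number of nuclei, which lies somewhat below the exact bound. The labels of cell type held against their markers. *Snap25* averaged 62.99 to 131.1 RPKM in neurons, *Csf1r* 801 to 960 RPKM in microglia and *Olig1* 39.1 to 67.5 RPKM in oligodendrocytes. The glia of the WT 96-well pool also carried neuronal RNA, with *Snap25* at 51.7 RPKM in microglia and 41.3 RPKM in oligodendrocytes, against 9.85 and 8.88 RPKM in the pool labelled Ehmt1delta/+.

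*Ehmt1* RNA went against its label. It averaged 18.7, 19.5 and 20.7 RPKM in neurons of the WT 96-well, WT 384-well and iTg pools, and 31.2, 31.7 and 33.9 RPKM in the 3 pools labelled Ehmt1delta/+ in the same order. This value counts the whole gene, not the deleted part of the allele, and the direction of every comparison below rests on the genotype labels. *Ehmt2* was at 26.6 and 25.5 RPKM in neurons of the 96-well pools, and at 71.4, 66.2, 66.8 and 46.95 RPKM in the WT, labelled Ehmt1delta/+, iTg and labelled Ehmt1delta/+; iTg pools of the 384-well plates.

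The set split into 4 genes that were read in a sizeable share of neurons of every pool and 6 that were rare. Over all 1664 neurons *Sycp3* was above 0 in 46.9%, *Ddx4* in 23.6%, *Dazl* in 19.8% and *Stag3* in 14.8%, at mean levels of 2.39, 0.785, 0.673 and 0.618 RPKM. The other 6 were above 0 in 2.76% (*Tdrd1*), 2.22% (*Slc25a31*), 1.20% (*Mael*), 0.962% (*Stk31*), 0.841% (*Hormad1*) and 0.0601% (*Sycp1*) of neurons, each at a mean under 0.1 RPKM. Even the most abundant was modest among all genes of the tables, since 69.1% of them had a lower mean RPKM in neurons than *Sycp3*, 57.2% a lower one than *Ddx4* and 55.7% a lower one than *Dazl*. Positive neurons held few reads, with a median of 2 reads for *Sycp3*, 3 for *Ddx4* and *Dazl*, and 7 for *Stag3*.

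**Figure D1:**
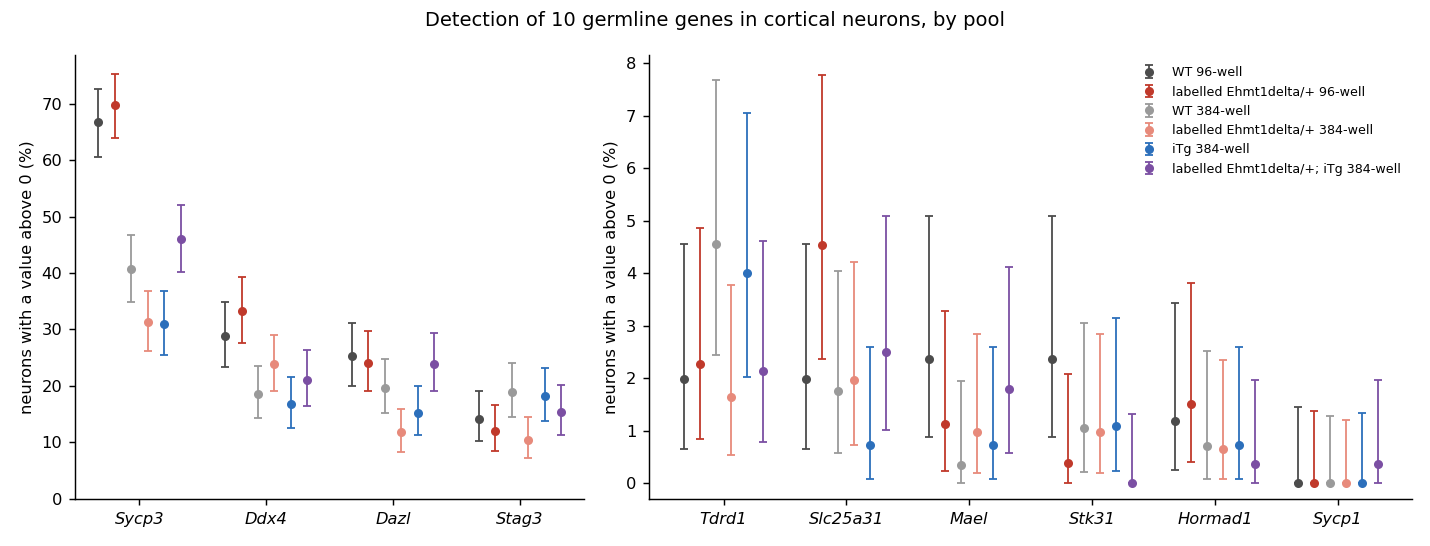
Share of neurons with a value above 0 (y axis, %) for each germ cell gene and pool, with exact 95% binomial intervals as bars; the 4 frequent genes are on the left and the 6 rare genes on the right, on separate scales. *Sycp3* reaches 66.8% and 69.8% in the 96-well pools, and no rare gene exceeds 4.56% in any pool.

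*Ddx4*, on chromosome 13 from 112598333 to 112652475 on the minus strand, gave whole reads only and overlaps no other gene. It was above 0 in 73 WT neurons (28.9%, interval 23.4 to 34.9) and in 88 labelled Ehmt1delta/+ (33.2%, 27.6 to 39.2) of the 96-well format. On 384-well plates it was above 0 in 18.6% of WT neurons, 23.9% of those labelled Ehmt1delta/+, 16.7% of iTg and 21.1% of those labelled Ehmt1delta/+; iTg. The share was therefore higher in the pool labelled Ehmt1delta/+ of each of the 3 pairs, but all 3 pairs of intervals overlap. By plate code the 96-well share ranged from 17.2% to 38.1% in WT and from 22.4% to 41.7% in those labelled Ehmt1delta/+. Under the 3 codes that occur in both genotypes it was higher in those labelled Ehmt1delta/+ each time (41.7% against 38.1%, 32.8% against 29.5% and 36.6% against 30.8%), and the lowest share of each genotype came from its own code. The highest value of any neuron was 26.7 RPKM, from 42 reads, in the iTg pool.

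*Dazl*, on chromosome 17 from 50279395 to 50293636 on the minus strand, was above 0 in 25.3% of WT neurons and 24.2% of those labelled Ehmt1delta/+ on 96-well plates. On 384-well plates the shares were 19.6% in WT (interval 15.2 to 24.7), 11.8% in those labelled Ehmt1delta/+ (8.38 to 15.9), 15.3% in iTg (11.2 to 20.1) and 23.9% in those labelled Ehmt1delta/+; iTg (19.05 to 29.4). The pool labelled Ehmt1delta/+ was thus the lowest and that labelled Ehmt1delta/+; iTg the highest of these 4, with intervals that do not overlap, each from a single pool. The nearest genes lie 88721 bases (*Rftn1*) and 215767 bases (*Plcl2*) away. *Ddx4* and *Dazl* were seen in the same neuron 22, 25, 12, 11, 4 and 19 times in the 6 pools (WT and labelled Ehmt1delta/+ of the 96-well plates, then WT, labelled Ehmt1delta/+, iTg and labelled Ehmt1delta/+; iTg of the 384-well plates). The products of their shares give 18.5, 21.3, 10.4, 8.59, 7.03 and 14.1, so the pair met slightly more often than these products in 5 of the 6 pools and less often in iTg. Read totals differ among the neurons of a pool, and the products take no account of this, so the counts are a description.

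*Sycp3*, the lateral element protein of the synaptonemal complex, had the highest share, but part of its signal is shared with another gene. It lies on chromosome 10 from 88459569 to 88473236 on the plus strand, inside the span of *Chpt1* (choline phosphotransferase) on the minus strand, and 660 exonic bases belong to both. The rest of its 1264 exonic bases lies between exons of *Chpt1*. As the strand was not kept, a whole read there cannot be assigned to either gene, and requiring 1 read does not remove this limit. Of all values of *Sycp3* above 0, 37.2% were not whole reads. The share of neurons above 0 was 66.8% in WT and 69.8% in those labelled Ehmt1delta/+ of the 96-well plates, and 40.7%, 31.4%, 30.9% and 46.1% in WT, labelled Ehmt1delta/+, iTg and labelled Ehmt1delta/+; iTg of the 384-well plates. Every 96-well neuron with *Sycp3* above 0 also had *Chpt1* above 0, as did most such neurons of each 384-well pool. On 96-well plates *Sycp3* was thus never read in a neuron without *Chpt1*. A read in the shared bases counts for both genes, so a nucleus positive for 1 of them is more often positive for the other by construction, and the split that follows is a description. Neurons with *Chpt1* above the pool's median were positive for *Sycp3* in 80.95% and 87.1% of cases in the 96-well pools, against 52.8% and 52.6% of the other neurons, at like read totals (medians of 347544 and 341442 reads in WT). With at least 1 read of *Sycp3* required, the shares were 74.6% against 33.1% and 76.5% against 42.9%. In the 384-well pools the same split gave 55.6% against 25.9%, 47.7% against 15.03%, 43.1% against 18.8% and 64.3% against 27.9%, with more reads in the neurons high in *Chpt1* (434773 against 347917 in WT). Glia of the 96-well plates showed the same order. In the 96-well oligodendrocytes *Sycp3* was above 0 in 24 of 36 WT nuclei high in *Chpt1* and 2 of 37 others, and in 25 of 35 and 0 of 36 of those labelled Ehmt1delta/+. In the 96-well microglia it was above 0 in 9 of 14 and 0 of 22, and in 5 of 13 and 0 of 19. In the 384-well glia it was above 0 in few nuclei, with 2 of 8 against 0 of 61, 1 of 9 against 2 of 37, 1 of 9 against 0 of 62 and 5 of 21 against 0 of 46 oligodendrocytes, and the 1 positive microglial nucleus was among those low in *Chpt1*. How many reads of *Sycp3* come from *Chpt1* was not tested, and reads in the shared bases had been divided, so its level may be too high or too low.

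**Figure D2:**
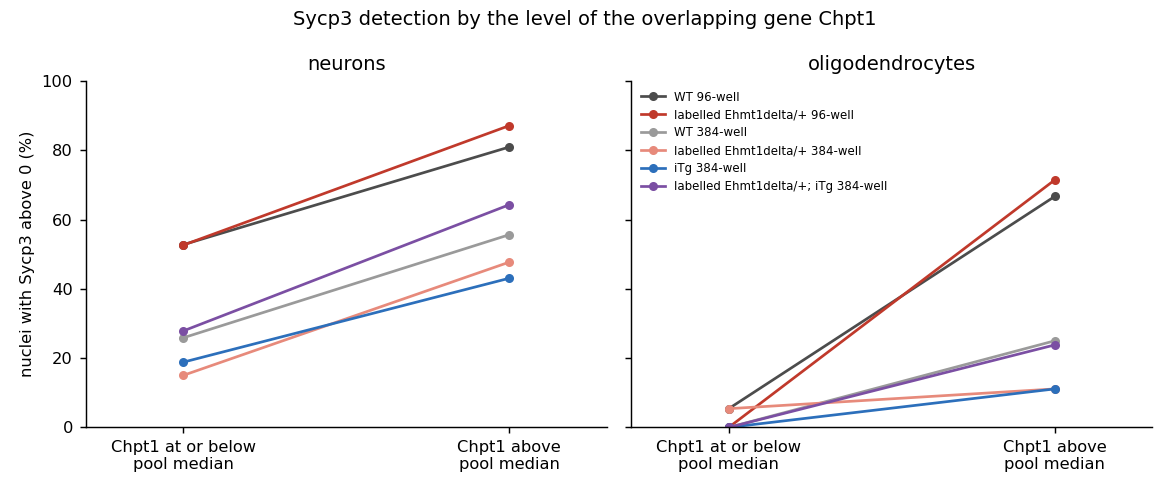
Share of nuclei with *Sycp3* above 0 (y axis, %) among nuclei with *Chpt1* at or below, or above, the median of their pool and cell type (x axis), in neurons and oligodendrocytes; each line is a pool. Every line of neurons rises, from 15.03% to 52.8% on the left to 43.1% to 87.1% on the right.

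*Stag3*, the meiotic cohesin subunit, was above 0 in 14.2% and 12.1% of neurons in the 96-well plates (WT, labelled Ehmt1delta/+) and in 18.9%, 10.46%, 18.2% and 15.4% in the 384-well plates. It was lower in the pool labelled Ehmt1delta/+ of all 3 pairs. Of its values above 0, 25.3% were not whole reads, and requiring at least 1 read lowered the shares to 12.6%, 8.68%, 15.1%, 9.48%, 14.9% and 13.2%. Its somatic counterparts *Stag1* and *Stag2*, which serve cohesin in dividing and resting cells alike, averaged 5.54 to 10.3 RPKM and 3.30 to 8.70 RPKM in neurons, above *Stag3* in every pool. The same holds for *Slc25a31*, whose mean of 0.0666 RPKM over all neurons stood beside 5.28 to 12.04 RPKM for *Slc25a4* and 1.59 to 5.81 RPKM for *Slc25a5*, the somatic carriers. *Ddx3x*, a somatic helicase related to *Ddx4*, averaged 4.07 to 11.3 RPKM.

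Of the 6 rare genes, *Tdrd1* gave the most reads. It was read in 5 and 6 neurons of the 96-well pools (WT, labelled Ehmt1delta/+), and in 13, 5, 11 and 6 neurons of the 384-well pools. The 384-well pools divided by *Ehmt1* label, with means of 0.166 RPKM in WT and 0.215 RPKM in iTg against 0.0437 and 0.04696 RPKM in the pools labelled Ehmt1delta/+ and Ehmt1delta/+; iTg, while the 96-well pools showed the opposite order, 0.0458 RPKM in WT and 0.0697 RPKM in those labelled Ehmt1delta/+. *Slc25a31* was read in 5, 12, 5, 6, 2 and 7 neurons and *Mael* in 6, 3, 1, 3, 2 and 5, with 8 and 6 reads at most in a neuron. *Stk31* was read in 6, 1, 3, 3, 3 and 0 neurons, where 0 of 280 allows a share of up to 1.07%, and 1 iTg neuron held 49 of the 61 reads of its pool. *Sycp1*, the transverse filament of the synaptonemal complex, gave 1 read in 1 of 1664 neurons, and a count of 0 in the WT neurons of the 96-well plates allows a share of up to 1.19%. *Hormad1* was above 0 in 14 neurons, 12 of which held less than 1 read.

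At least 1 of the 10 genes was above 0 in 82.6% of WT neurons (interval 77.4 to 87.1) and 86.8% of those labelled Ehmt1delta/+ (82.1 to 90.6) on 96-well plates. On 384-well plates the shares were 67.7%, 56.9%, 59.6% and 69.6% in WT, labelled Ehmt1delta/+, iTg and labelled Ehmt1delta/+; iTg. Without *Sycp3* they fell to 58.5% and 58.1% in the 96-well pools and 48.4%, 41.5%, 44.7% and 49.3% in the 384-well pools. A neuron had on average 1.45 and 1.49 of the 10 genes above 0 in the 96-well pools and 0.837 to 1.14 in the 384-well pools, and 5 at most.

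The cell types differed. *Ddx4* was above 0 in 2 of 397 oligodendrocytes and 2 microglia, and *Dazl* in 0 of 397 oligodendrocytes and 1 microglial nucleus. The comparison rests on the 96-well plates, where glia were read more deeply than neurons. There, *Dazl* and *Ddx4* were both at 0 of 73 WT oligodendrocytes and 0 of 71 of those labelled Ehmt1delta/+, with exact upper bounds of 4.93% and 5.06%, below the lowest bound of either gene in neurons of these plates (19.12%). Each of the 73 WT oligodendrocytes had *Snap25* above 0, and none had a read of either gene. The microglia with *Ddx4* held 28 reads in 1 of 36 WT nuclei and 11 reads in 1 of 32 labelled Ehmt1delta/+, and the 1 microglial nucleus with *Dazl* held 16 reads. *Sycp3* was above 0 in 35.6% and 35.2% of 96-well oligodendrocytes and 25% and 15.6% of microglia, with the dependence on *Chpt1* described above.

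**Figure D3:**
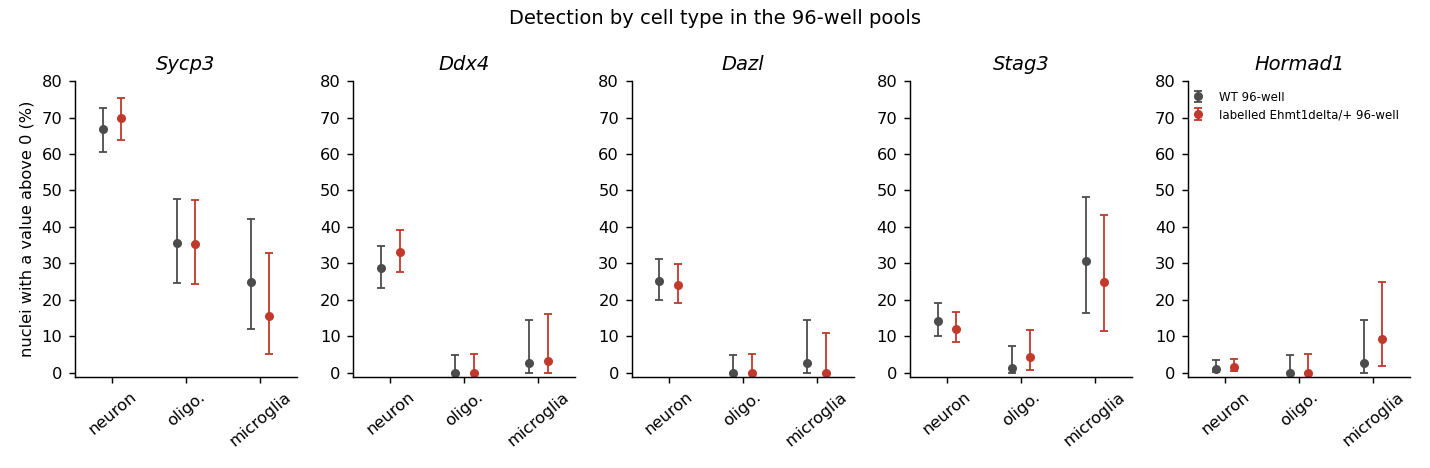
Share of nuclei with a value above 0 (y axis, %) by labelled cell type for 5 germ cell genes in the 96-well pools, with exact 95% binomial intervals as bars. *Ddx4* and *Dazl* lie between 24.2% and 33.2% in neurons and at 0 in oligodendrocytes, while *Stag3* is highest in microglia.

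*Stag3* and *Hormad1* went the other way. The mean of *Stag3* was higher in microglia than in neurons in all 6 pools, at 5.04 against 0.662 RPKM and 3.53 against 0.429 RPKM in the 96-well pools, and 2.34 against 0.727, 13.5 against 0.466, 1.52 against 0.763 and 3.09 against 0.669 RPKM in the 384-well pools. The level came from a few nuclei. In the 384-well microglia, which had few reads, *Stag3* was above 0 in 1 of 16, 3 of 19, 2 of 20 and 3 of 23 nuclei. These shares were 6.25%, 15.8%, 10% and 13.04%, against 18.9%, 10.46%, 18.2% and 15.4% of neurons. On these plates the share was thus higher in microglia only in the pool labelled Ehmt1delta/+. In WT 96-well microglia 6 of 36 held 62 to 100 reads each, and in those labelled Ehmt1delta/+ 5 of 32 held 33 to 89 reads. In the 384-well plates 1 of 19 nuclei labelled Ehmt1delta/+ held 132.33 reads, and every other positive nucleus of these plates held 1 to 9 reads. Most other 96-well microglia had none or less than 1 read. The 11 high nuclei carried the microglial marker *Cx3cr1*, at 118.03 to 625 RPKM. *Ctss*, a further microglial marker, was lower in them, with a median of 238.5 RPKM in the 6 WT nuclei against 377.9 RPKM in the rest and of 83.3 against 254.98 RPKM in those labelled Ehmt1delta/+, and it was at 0 in the 384-well nucleus with 132.33 reads. *Snap25* was not higher in them, with a median of 42.2 RPKM in the 6 WT nuclei against 61.7 RPKM in the rest, and of 0 against 1.23 RPKM in those labelled Ehmt1delta/+. The nearest gene to *Stag3*, *Gpc2* (a heparan sulfate proteoglycan), starts less than 300 bases away on the opposite strand, and it was itself high in microglia, at 11.1 to 39.99 RPKM over the 6 pools against 0.0843 to 0.411 RPKM in neurons. The genes point away from each other, with *Gpc2* at lower coordinates on the minus strand and *Stag3* on the plus strand. Of the 11 high nuclei, those with 89 and 79.53 reads of *Stag3* had *Gpc2* at 0, and the others had it at 4.27 to 22.5 RPKM. Whether the levels of these genes are linked was not tested.

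*Hormad1* gave more than 1 read in 4 nuclei, and all 4 were 96-well microglia, 1 WT nucleus with 10 reads and 3 labelled Ehmt1delta/+ with 10, 13 and 21 reads. *Hormad1* begins 3274 bases past the end of *Ctss* (cathepsin S), a microglial marker on the same strand. *Ctss* was at 863 RPKM in the WT nucleus and at 244.1, 362.1 and 213.9 RPKM in the others, beside pool medians of 364.98 and 242.6 RPKM, so 3 of the 4 were above the median of their pool and none was at its top, where the highest values were 1372 and 2973 RPKM. Whether reads that run past the end of *Ctss* contribute was not tested.

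Neurons were then divided by the larger of *Slc17a7*, the vesicular glutamate transporter of excitatory neurons, and *Gad1*, the GABA-synthesizing enzyme of inhibitory neurons, and the 6 pools were used as replicates. In excitatory neurons *Dazl* averaged 0.942, 1.18, 0.640, 0.491, 0.633 and 0.859 RPKM in the 6 pools, and in inhibitory neurons 0.403, 0.0568, 0.205, 0.0951, 0.435 and 0.222 RPKM. The excitatory mean was the higher one in 6 of 6 pools, and the 2 sets of values do not overlap. By limma on the pool means with the pool as a block and Benjamini-Hochberg adjustment over 27710 genes, the log2 difference was 1.498 (SE 0.305, adjusted p = 0.00852). Of all genes tested, 18.5% were called higher in excitatory and 18.7% higher in inhibitory neurons, and of the 4 members frequent enough to be tested *Dazl* was the only one called. Leaving out any 1 pool gave differences from 1.19 to 1.71 with adjusted p from 0.00595 to 0.0264. Over all pools 22.9% of 1324 excitatory and 7.51% of inhibitory neurons had *Dazl* above 0, at like read totals (medians of 354556 and 346074 reads). Among inhibitory neurons *Dazl* was above 0 in 13.01% of those with *Lamp5* (16 neurons), 8.45% of those with *Sst* (12 neurons), 4.07% of those with *Pvalb* (5 neurons, all from 1 pool) and 0 of 50 with *Vip*, which allows a share of up to 6%. These marker groups overlap, since a neuron with more than 1 marker is counted in each. They are not separate classes of interneurons, and their counts cannot be added.

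*Ddx4* was higher in excitatory neurons in 5 of 6 pools by its mean and 6 of 6 by its share, with a log2 difference of 0.52 that did not pass (adjusted p = 0.0617 by limma). The WT 384-well pool was the exception by mean (0.487 RPKM in excitatory and 0.678 RPKM in inhibitory neurons). Without it the difference was 0.70 with an adjusted p of 0.00501 by limma, and without any other pool the adjusted p was 0.111 to 0.150. Leaving out the pool that goes the other way lowers p by construction, here and for the next genes, so such a fit is a description. By its mean *Sycp3* pointed to inhibitory neurons in 5 of 6 pools, with a log2 difference of -0.29 (adjusted p = 0.0524 by limma, 0.0451 with a pseudocount of 1 RPKM). The overlapping *Chpt1* was at -0.32 (adjusted p = 0.0445). Without the 384-well pool labelled Ehmt1delta/+, the exception, *Sycp3* was at -0.35 with an adjusted p of 0.0306, and without any other pool the adjusted p was 0.0676 to 0.129 by limma. The share of *Sycp3* showed no such order. It was higher in excitatory neurons in 3 of 6 pools, and over all pools it was 46.7% in excitatory and 47.4% in inhibitory neurons. *Stag3* was higher in inhibitory neurons in 5 of 6 pools by its mean, with a log2 difference of -0.74 (adjusted p = 0.128 by limma). Without the 384-well pool labelled Ehmt1delta/+, the only one with the other order, the difference was -1.02 with an adjusted p of 0.0353. Without any other pool the adjusted p was 0.153 to 0.279 by limma.

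**Figure D4:**
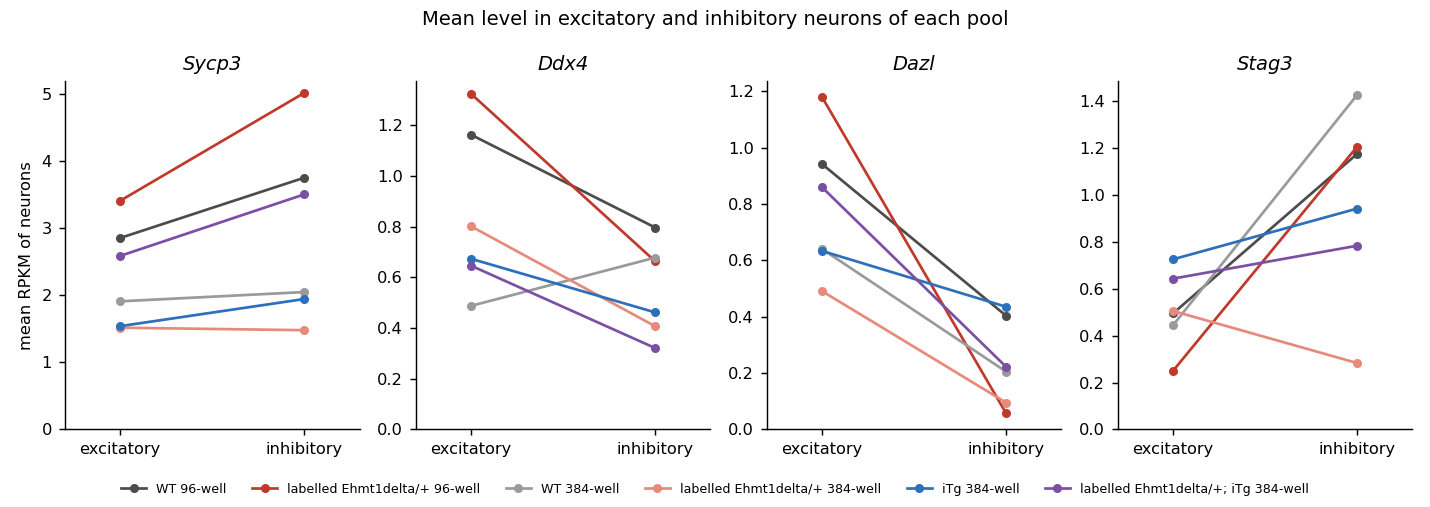
Mean RPKM (y axis) of the 4 frequent germ cell genes in excitatory and inhibitory neurons, 1 line per pool. The 6 lines of *Dazl* all fall from excitatory (0.491 to 1.18 RPKM) to inhibitory neurons (0.0568 to 0.435 RPKM), and 5 of 6 lines of *Stag3* rise.

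The comparison the study's design centres on, labelled Ehmt1delta/+ against WT, was made on mean RPKM over the neurons of a pool, as log2(mean + 0.1), with the 2 plate formats as the only replicates. This scale understates the change of low genes. Of the 10 genes 7 passed the filter of 1% of neurons of a genotype in both formats, and limma called 0 of the 7 and 0 of all 33978 genes tested (0% called). At an unadjusted p under 0.05 the counts were 2 of 7 and 2939 of 33978 (8.65%). *Stag3* was 1 of the 2, at 0.662 RPKM in WT and 0.429 RPKM in neurons labelled Ehmt1delta/+ of the 96-well plates and 0.727 and 0.466 RPKM in the 384-well plates. Its log2 difference was -0.53 and -0.55 in the 2 formats and -0.54 in the fit (SE 0.113, adjusted p = 0.572). The 96-well difference rests in part on 1 WT neuron, which had the highest *Stag3* value of all neurons. The difference without this neuron was not computed, so the likeness of the 2 formats is a description. *Stk31* was the other, but it passed the filter only through WT (2.37% and 1.05% of neurons, against 0.377% and 0.98%), so the filter itself favours a low value in those labelled Ehmt1delta/+ and its difference is given as a description. It had differences of -1.06 and -0.50 and -0.78 in the fit (SE 0.199, adjusted p = 0.572), on 33 and 18 reads in all WT neurons of the 2 formats and 2 and 8 reads in those labelled Ehmt1delta/+.

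*Ddx4* was higher in labelled Ehmt1delta/+ neurons in both formats, by 0.16 and 0.41 on the log2 scale and 0.28 in the fit (SE 0.135, adjusted p = 0.638). The 2 formats gave opposite signs for *Dazl* (0.26 and -0.26), *Sycp3* (0.25 and -0.33), *Tdrd1* (0.22 and -0.89) and *Slc25a31* (0.86 and -0.16), and their fitted differences were 0.00, -0.04, -0.33 and 0.35 with adjusted p from 0.783 to 0.9999 by limma. *Mael*, which did not pass the filter, also changed sign (-0.48 and 0.30), and *Hormad1* and *Sycp1* were too rare for a difference.

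Within the 384-well plates each genotype was a single pool, and a member was counted where its log2 ratio passed 1 in size. None of the 7 members above 0 in at least 1% of neurons of either pool passed it for labelled Ehmt1delta/+ to WT (4.58% of all genes did), none of 7 for iTg to WT (5.50%), and none of 7 for labelled Ehmt1delta/+; iTg to labelled Ehmt1delta/+ (9.38%). For labelled Ehmt1delta/+; iTg to iTg 2 of 8 did (13% of all genes), *Tdrd1* at -1.10 and *Stk31* at -1.004, but *Stk31*, at 0 in the first pool, passed the filter only through iTg and rests on the neuron with 49 reads. In the 96-well plates 1 of 9 did, *Stk31* at -1.06 (4.71% of all genes), and it too passed only through the pool where it is high. The largest ratios of the frequent genes were those of *Sycp3*, 0.81 for labelled Ehmt1delta/+; iTg to labelled Ehmt1delta/+ and 0.74 to iTg, and of *Dazl*, 0.70 to labelled Ehmt1delta/+. The median of all genes was also raised in those 2 comparisons, to 0.136 and 0.198, and these comparisons share pools. *Chpt1* averaged 2.54 RPKM in the same neurons, against 1.48 RPKM in those labelled Ehmt1delta/+ and 1.66 RPKM in iTg.

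**Figure D5:**
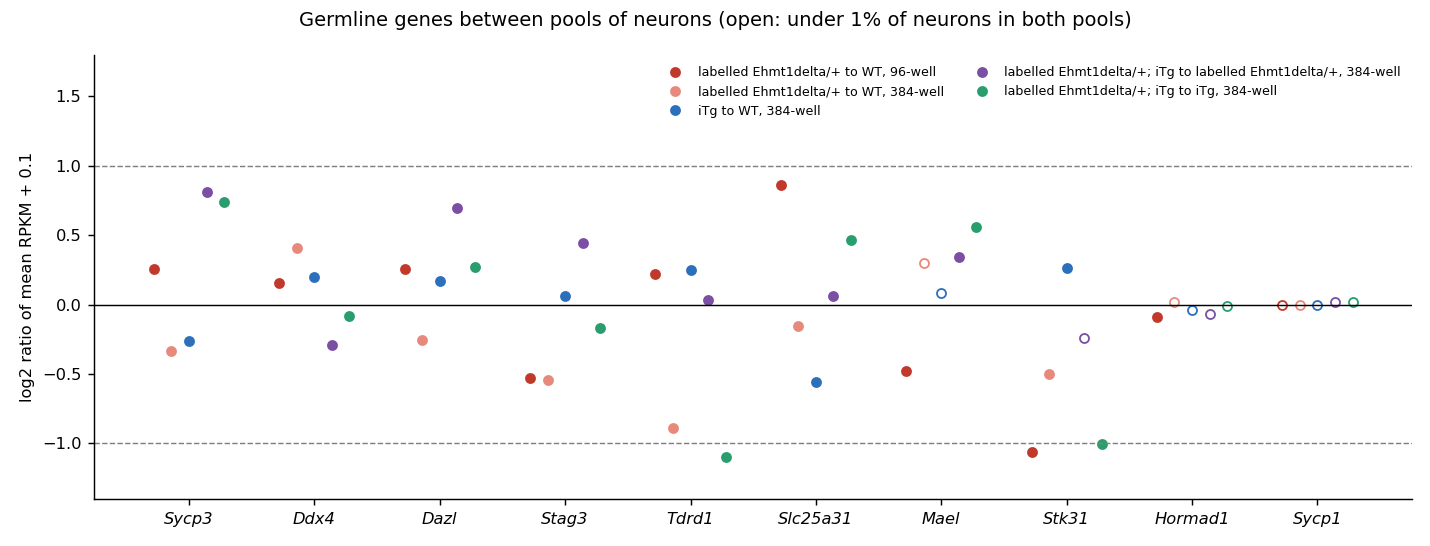
Log2 ratio of mean RPKM + 0.1 (y axis) between pools of neurons for each germ cell gene in 5 comparisons; filled points are genes above 0 in at least 1% of neurons of either pool, open points are rarer genes, and dashed lines mark a ratio of 1 in size. *Stag3* lies at -0.53 and -0.55 in both comparisons of labelled Ehmt1delta/+ to WT, and only *Tdrd1* and *Stk31* pass a dashed line.

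The repressors named for these promoters were read in neurons of every pool. *Mga* averaged 9.21 to 12.7 RPKM, *Max* 9.46 to 11.8, *L3mbtl2* 7.29 to 11.3, *Pcgf6* 6.92 to 13.1, *E2f6* 4.59 to 7.21, *Setdb1* (a further lysine 9 methyltransferase) 20.97 to 25.4 and *Dnmt1* (the maintenance DNA methyltransferase) 11.3 to 18.4. Of 18 repressor genes tested between labelled Ehmt1delta/+ and WT, limma called 0, and only *Ehmt1* had an unadjusted p under 0.05 (log2 difference 0.71, adjusted p = 0.572).

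A wider list of 50 germ cell genes gave the setting of the 10. In neurons 49 of the 50 were above 0 at least once, 32 in at least 5% of neurons and 11 in under 1%. The 5 with the highest mean were *Mei1* (meiotic recombination) at 6.66 RPKM, *Rec8* (meiotic cohesin) at 4.09, *Sycp2* (partner of *Sycp3* in the lateral element) at 3.82, *Brdt* (testis bromodomain protein) at 3.69 and *Tdrkh* (piRNA pathway) at 3.64 RPKM, all above *Sycp3*. *Tdrkh* shares 2255 exonic bases with *Oaz3*, and 42.4% of its values were not whole. *Mei1* resembled *Dazl* in its cell types, with 39.9% and 51.7% of neurons and none of the microglia or oligodendrocytes in the 96-well plates, while *Brdt* was above 0 in 58.9% and 59.2% of oligodendrocytes there. Between labelled Ehmt1delta/+ and WT, 39 of the 50 were tested, limma called 0, and 3 of the 39 had an unadjusted p under 0.05, a share below that of all genes (8.65%): *Tex14* (-0.99), *Majin* (0.65) and *Tex15* (-0.47), each with an adjusted p of 0.572 or 0.575.

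The genes whose means most resembled those of *Sycp3* over the 18 combinations of pool and cell type, among 27478 genes, were *Gm3355* (Pearson's r = 0.961), *Tstd3* (0.958) and *Lrrn3* (0.958), and for *Ddx4* *Gm42744* (0.974), *Tmem30c* (0.962) and *Gm44760* (0.962). The combinations share plates and depth, and the correlations describe these tables only.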

How the data were processed

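RamDA-seq libraries of 2207 single nuclei were measured. Per the methods of the study, the authors trimmed adapters, mapped reads to mm10 with HISAT2 2.0.4, removed poor nuclei, counted reads per gene with featureCounts of Subread 1.5.0 at default settings, and set cell types from UMAP clusters with known markers. RPKM values of 52636 genes, deposited by the authors as 1 table per plate format, were already normalized, and these values were the start of the work here. Many values are fractions of a read, so reads of overlapping or repeated genes had been divided.

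Read totals of nuclei were derived from the RPKM step of 1 read, and a value was called whole within 0.02 reads. Coordinates came from GENCODE M21 and promoters from RefSeq, both of GRCm38. Overlaps and distances use all exons of a gene. Pool means of RPKM were compared as log2(mean + 0.1). The test of labelled Ehmt1delta/+ against WT used limma 3.58.1 in R 4.3.3 over 4 pools with plate format as a term, and the authors' own test, edgeR on nuclei, was not used since nuclei are not replicates and no counts were given. Genes above 0 in at least 1% of neurons of a genotype in both formats were tested, with Benjamini-Hochberg adjustment at 0.05. Excitatory and inhibitory neurons were compared by limma over 12 means of 6 pools, for genes above 0 in at least 5% of neurons, a comparison added after seeing the data, as were the splits by *Chpt1*, by 10 reads of *Stag3* and by interneuron markers. Shares and intervals used Python 3.11.15 and SciPy 1.17.1. The scripts were tested on simulated data.

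The 10 genes, the gene lists (50 other germ cell genes, 18 repressors, cell type markers) and the rule for named genes were chosen with earlier results of these data known. The rule takes all 10 genes, *Ehmt1*, the 5 other germ cell genes with the highest mean in neurons, somatic counterparts, listed repressors, overlapping or nearest genes of members above 0 in at least 5% of neurons, and the 3 genes most like *Sycp3* and *Ddx4*. *Gpc2* and *Ctss* beside *Stag3* and *Hormad1*, *Tex14*, *Majin*, *Tex15*, *Tdrd1*'s reads by pool and the interneuron markers were singled out after their values were seen. Astrocyte markers were low or not specific in neurons (*Aqp4* at most 0.275 RPKM), but *Aqp4* reached 3.05 and 2.16 RPKM in the 96-well microglia (WT, labelled Ehmt1delta/+). Of the endothelial markers, *Cldn5* was at most 0.225 RPKM and *Flt1* at most 0.173 RPKM in any group. *Pecam1*, of the same list, was at 0.502 to 10.04 RPKM in microglia of the 6 pools.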

Additional observations from a re-analysis of the deposited data

Results flagged for a closer look

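Ratios of frequent germ cell genes that had opposite signs in matched comparisons are listed here. Each value compares 1 pool with 1 pool on the log2 scale, and the differences between comparisons were not tested. *Sycp3* was at 0.25 on 96-well plates, -0.33 on 384-well plates, and at 0.74 for labelled Ehmt1delta/+; iTg to iTg. *Dazl* was at 0.26, -0.26 and 0.27 in the same order. *Ddx4* had the same sign on both plate formats, at 0.16 and 0.41, and was at -0.081 for labelled Ehmt1delta/+; iTg to iTg.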

How the results depend on the processing

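The share of neurons with any of the 10 genes moved with what counts as detected, with the members counted and with depth. For WT and labelled Ehmt1delta/+ of the 96-well plates, then WT, labelled Ehmt1delta/+, iTg and labelled Ehmt1delta/+; iTg of the 384-well plates, it was 64.4%, 64.9%, 48.8%, 41.8%, 50.2% and 53.6% at 2 or more reads of a gene, 49.8%, 51.3%, 39.3%, 34.97%, 33.5% and 40% without *Sycp3*, *Stag3* and *Hormad1*, whose values are often not whole, and 58.5%, 58.1%, 48.4%, 41.5%, 44.7% and 49.3% without *Sycp3* alone, a setting chosen after seeing the data. Thinning each nucleus to 48585 reads in the 384-well plates gave 30.3%, 24.4%, 29.6% and 33.5% there, and requiring at least 1 read of a gene gave 79.6% in the 96-well pool labelled Ehmt1delta/+. Of 60 pairs of gene and pool, 24 were at or above 5% of neurons, 24 with at least 1 read required and 23 after thinning.

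Counts of members past a log2 ratio of 1 moved with the pseudocount and the filter. With a pseudocount of 0.01 RPKM they were 3 for labelled Ehmt1delta/+ to WT on 96-well (11.8% of all genes) and 2 on 384-well plates (11.5%), 1 for iTg to WT (13.1%) and 4 for labelled Ehmt1delta/+; iTg to iTg (21.4%). With a pseudocount of 1 RPKM or a filter of 10% of neurons both comparisons that had any came to 0. limma called 0 members and 0 other germ cell genes under every alternative (pseudocounts, filters, a trend, no plate format term, and the iTg pools as a further pair, added after seeing the data), with 0 to 2 of the members at an unadjusted p under 0.05. The fitted difference of *Dazl* became -0.011 at a pseudocount of 0.01 RPKM, and that of *Sycp3* 0.22 with the further pair. With 1 plate format only, the differences lay between -0.26 and 0.26 for *Dazl*, -0.33 and 0.25 for *Sycp3*, 0.16 and 0.41 for *Ddx4*, -0.55 and -0.53 for *Stag3*, -1.06 and -0.50 for *Stk31*, -0.89 and 0.22 for *Tdrd1*, and -0.16 and 0.86 for *Slc25a31*. The excitatory to inhibitory difference, without each pool in turn, ranged from 1.19 to 1.71 for *Dazl*, 0.44 to 0.70 for *Ddx4*, -0.35 to -0.24 for *Sycp3* and -1.02 to -0.50 for *Stag3*. *Sycp3* passed at a pseudocount of 1 RPKM (-0.22). The causes of these changes were not tested.

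No paired analysis was possible because the replicate numbers only name nuclei and pair none across genotypes. The plate format and the pool were terms of the 2 limma fits. Depth limits glia of the 384-well plates, and 1 residual degree of freedom limits the limma test of labelled Ehmt1delta/+ against WT.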
